A study of Homo sapiens with 3 samples.

Results

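The IGF binding proteins are a small family of secreted proteins, and these data hold 7 of their genes, IGFBP1 to IGFBP7. By rule, the members are every probe set that the platform annotation maps to exactly 1 of the 7 symbols. That gave 16 probe sets, for 7 of the 19775 genes that have a probe set of their own on the array. The cells were U2OS, an established line from a human osteosarcoma, harvested 5 days after they were transduced with a retrovirus. One array carried RNA from cells transduced with the empty pMSCV vector, one from cells given wild-type Set8b (labelled Wt-Set8b), and one from cells given a stable Set8b (labelled Set8_deltaPIP2) that the CRL4-Cdt2 ubiquitin ligase cannot degrade. Set8 (gene KMT5A) adds a single methyl group to lysine 20 of histone H4. All 3 cultures had gone through retroviral transduction, so the vector array is the control for the virus, and the labels do not say whether the transduced cells were a pool or a clone.

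IGFBP1 to IGFBP6 bind the insulin-like growth factors IGF1 and IGF2 tightly outside the cell and hold them away from their receptor, IGF1R. Proteases that cut the binding proteins, such as pappalysin, release the growth factor again. IGFBP7 binds IGFs only weakly, also binds insulin, and is best known as a matrix and vessel wall protein that senescent cells secrete. Bone cells are known to make several of these proteins, with IGFBP4 and IGFBP5 among the most studied in bone.

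With 1 array per construct there is no replicate, so no difference below has a test or a p-value, and precision is limited by the number of arrays. Signals are quantile normalized and linear, with a floor at 7.71 (the 20th percentile). A gene counts as measured when a probe set of its own has a mean signal of at least 51.4 over the 3 arrays (the median), and the brightest such probe set stands for it. The spread between probe sets of 1 gene, an SD of 0.39 log2 (stable Set8b over vector), 0.42 (stable over wild-type Set8b) and 0.36 (wild-type Set8b over vector), was the only error at hand and leaves out the spread between cultures. The median deposited signal was 38.6 to 42.8 on the 3 arrays. The hybridisation spike-ins of the stable Set8b array had a median ratio of 0.796 to the vector array, and the poly-A spike-ins of the vector array stood apart from the other arrays, with ratios of 0.467 and 0.441 against it. The 3′ over 5′ signal ratio, a sign of RNA integrity, lay between 1.02 and 1.12 for GAPDH and between 7.33 and 7.995 for beta-actin. On every array the beta-actin ratio was far above that of GAPDH, so the 2 ratios do not settle RNA integrity. The part of these array differences in the results was not tested. The 4 probe sets of KMT5A were all above 0 for wild-type Set8b over vector (1.23, 0.48, 0.18 and 0.31 log2). For stable Set8b over vector they were at 0.90, 0.38, 0.12 and -0.76, and all 4 lay below 0 for stable over wild-type Set8b, down to -1.08. The probe set at -0.76 is 228443_s_at, the brightest, which by the rule above stands for the gene. It read 427.5 with vector, 532 with the wild-type form and 252 with stable Set8b, 1.70-fold lower than with vector. The other 3 were above 0, but 0.38 and 0.12 lie within the SD of 0.39. So KMT5A read higher on every probe set for the array labelled wild-type Set8b. For the one labelled stable Set8b no direction was settled by these probe sets.

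Of the 7 genes, 4 were measured: IGFBP4, IGFBP5, IGFBP6 and IGFBP7, by 6 of the 16 probe sets. IGFBP7 was more than 6-fold higher with stable Set8b than with vector, and IGFBP4 was 2.22-fold higher, while IGFBP5 and IGFBP6 differed by less than 2-fold. So 2 of the 4 measured members were at least 2-fold higher with stable Set8b, beside 5.23% of all 11783 genes measured, and 0 of 4 were at least 2-fold lower, beside 4.81%. Against wild-type Set8b, 1 of 4 was at least 2-fold higher with the stable form (background 4.45%), namely IGFBP7, and 0 of 4 lower (background 4.8%). Between wild-type Set8b and vector, 0 of 4 passed 2-fold in either direction, where 1.02% of all genes were higher and 0.653% lower, but with values as deposited 1 did, IGFBP4 at 1.08 log2. With 4 genes these shares are a description, and the comparisons share arrays, since each array enters 2 of the 3.

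**Figure D1:**
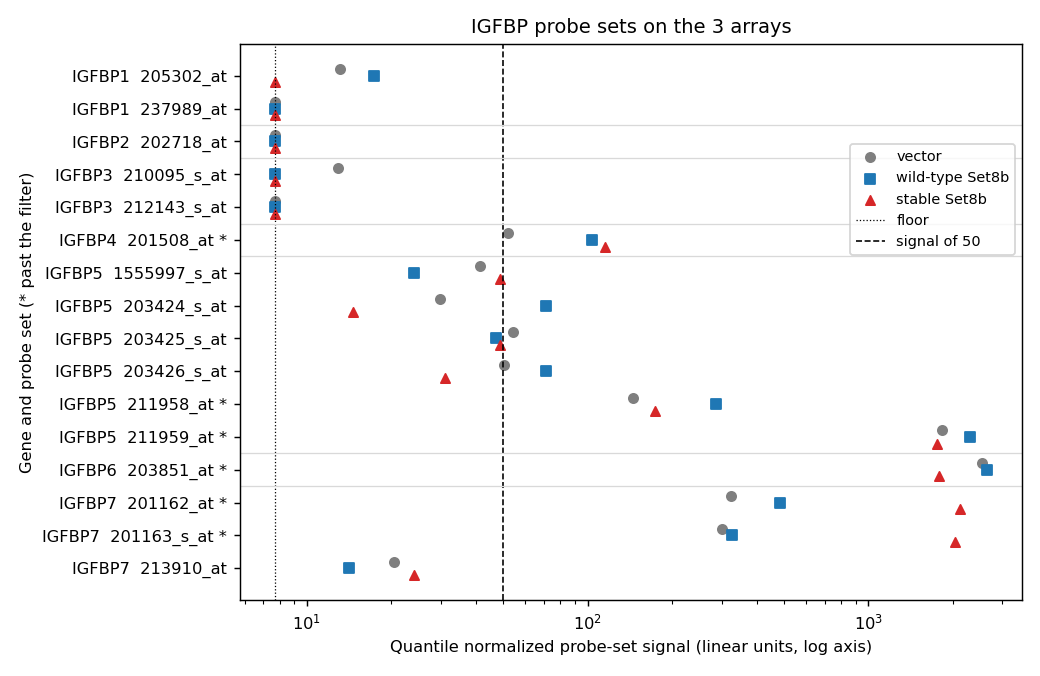
Quantile normalized signal (log axis) of each of the 16 IGFBP probe sets on the vector, wild-type Set8b and stable Set8b arrays, 1 point per array, with the floor of 7.71 (dotted) and a signal of 50 (dashed). Both bright IGFBP7 probe sets read 2037 or more with stable Set8b and 486 or less on the other arrays, and no IGFBP1, IGFBP2 or IGFBP3 point lies above 17.4.

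IGFBP7 was the member that stood out. Its probe set 201162_at read 324 with vector, 486 with the wild-type form and 2115 with stable Set8b. Its probe set 201163_s_at read 301, 327 and 2037 in the same order. On both, the stable Set8b array was far above the other arrays. The log2 differences for stable Set8b over vector were 2.71 and 2.76 (6.53-fold and 6.77-fold), so the 2 probe sets differed by less than the spread between probe sets of a gene.

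Against wild-type Set8b the same probe sets of IGFBP7 were 2.12 and 2.64 higher on the log2 scale (4.36-fold and 6.23-fold). For wild-type Set8b over vector they were at 0.58 and 0.12. In both of these comparisons the probe sets lay further apart than that spread (SD 0.42 and 0.36). The SD is that of a probe set around the mean of its gene, and a gap between 2 probe sets varies more. So these gaps do not show that the probe sets disagree. The third IGFBP7 probe set, 213910_at, read 20.5, 14.1 and 24.2 and did not pass the filter. By the brightest probe set, 31 of 11783 genes had a larger difference than IGFBP7 in stable Set8b over vector, and 69 did in stable over wild-type Set8b. For wild-type Set8b over vector 660 genes lay above it. The antisense transcript IGFBP7-AS1, which starts from the opposite strand at the beginning of IGFBP7, had 1 probe set, which read 9.73 with vector, 10.7 with wild-type Set8b and 7.71, the floor, with stable Set8b. It thus stayed near the floor on the array where IGFBP7 was high.

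IGFBP4 binds both IGFs, in textbook accounts mainly as an inhibitor of their action, until pappalysin cuts it. Its only probe set, 201508_at, read 52.0 with vector, 103 with the wild-type form and 116 with stable Set8b. Here the vector array was low and both Set8b arrays were higher and close to each other. The log2 difference over vector was 1.15 for stable Set8b and 0.99 (1.98-fold) for wild-type Set8b, just short of 2-fold, and the stable form was 0.16 above the wild-type form. Among all genes measured, 432 had a larger difference with stable Set8b over vector and 124 with wild-type Set8b over vector. The vector reading lies at the filter level of 51.4, and its deposited value was 49.4. A fold against so dim a reading, from a single probe set, is uncertain, and with only the brightest 25% of probe sets kept IGFBP4 was not measured.

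IGFBP5, the member that binds strongly to bone mineral and matrix, had 6 probe sets that went different ways. The brightest, 211959_at, read 1828 with vector, 2300.1 with the wild-type form and 1759 with stable Set8b. The next, 211958_at, read 145 with vector, 286 with the wild-type form and 174 with stable Set8b. Both were highest on the wild-type Set8b array, while vector and stable Set8b lay closer together. Their differences for wild-type Set8b over vector were 0.33 and 0.98 log2, for stable over wild-type Set8b -0.39 and -0.72, and for stable Set8b over vector -0.06 and 0.26.

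The other 4 IGFBP5 probe sets had mean signals between 31.4 and 49.9 and did not pass the filter. Over vector, 2 of the 6 lay above 0 and 4 below with stable Set8b, and 4 lay above and 2 below with wild-type Set8b. The widest gap was at 203424_s_at, which read 29.8 with vector, 71.3 with the wild-type form and 14.6 with stable Set8b, so that stable lay -2.29 log2 from wild-type Set8b. With readings under 50 set to 50 that difference was -0.51. No direction of IGFBP5 for stable Set8b over vector was settled by these probe sets.

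IGFBP6, which prefers IGF2 over IGF1, had 1 probe set. It read 2532 with vector, 2639.7 with the wild-type form and 1783 with stable Set8b. The stable Set8b array was the low one, at -0.51 log2 against vector and -0.57 against wild-type Set8b, while wild-type Set8b over vector was 0.06, or -0.10 with arrays centred on their medians. Both differences of stable Set8b were short of 2-fold but larger than the SD of 0.39 and 0.42 between probe sets. That SD leaves out the spread between cultures. Of all genes measured, 16.8% lay lower than IGFBP6 with stable Set8b over vector and 15.1% with stable over wild-type Set8b.

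IGFBP1, a binding protein made mainly by liver, IGFBP2, and IGFBP3, the main carrier of IGFs in blood, did not pass the filter. Their 5 probe sets gave 15 readings, of which 12 were at the floor. The 3 above it were 205302_at of IGFBP1 at 13.1 with vector and 17.4 with wild-type Set8b, and 210095_s_at of IGFBP3 at 12.9 with vector. As deposited, the 15 readings lay between 1.5 and 18.5. No difference is given for these genes, since all of these signals lie well below the filter level, and no detection calls were used to say whether a transcript was present.

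**Figure D2:**
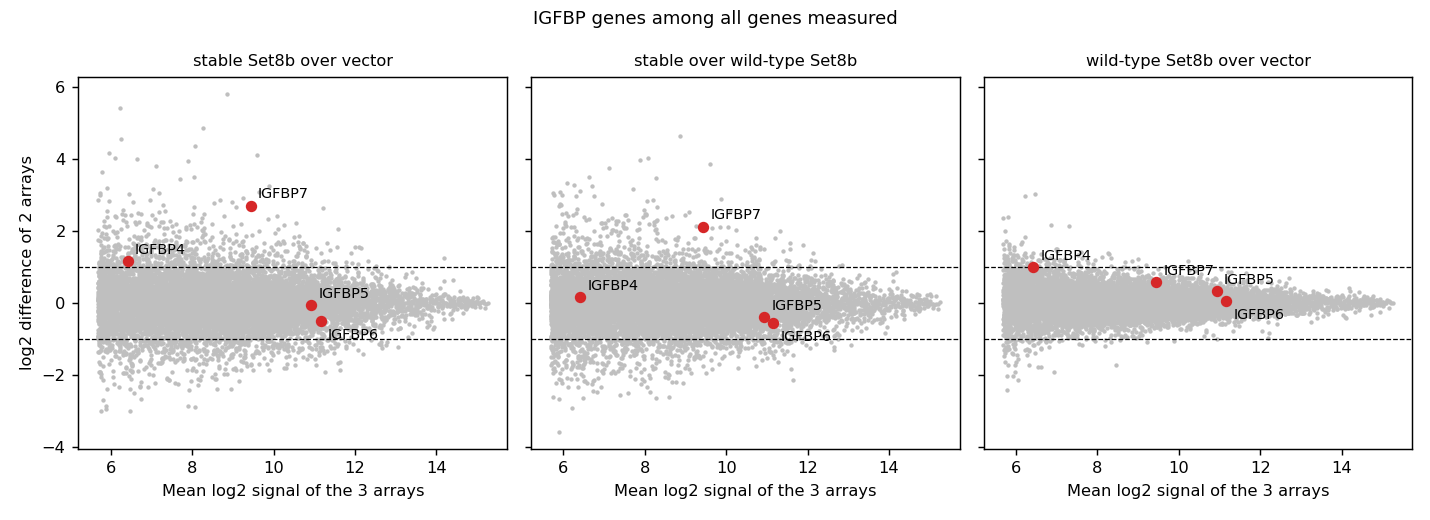
Log2 difference of 2 arrays against the mean log2 signal of the 3 arrays for the 11783 genes measured (grey) and the 4 measured IGFBP genes (red), with 2-fold differences as dashed lines, for each of the 3 comparisons. IGFBP7 sits at 2.71 and 2.12 in the comparisons of stable Set8b and at 0.58 between wild-type Set8b and vector; IGFBP4 sits among the dimmer genes.

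RefSeq promoter windows (GRCh38.p14) were found for 5 of the 7 genes, IGFBP2 to IGFBP6, 7 windows in all. The last 120 bases before the start site are shown for the 4 genes that have 1 window, because these are 3 measured members and 1 that is not, and they differ in how many CpG dinucleotides they hold, the sites where vertebrate DNA is methylated. Capitals mark each CpG, and every sequence reads 5′ to 3′ on the strand of its gene. The IGFBP3 stretch is chr7:45921273-45921392 on the minus strand, that of IGFBP4 is chr17:40443330-40443449 on the plus strand, that of IGFBP5 is chr2:216695550-216695669 on the minus strand and that of IGFBP6 is chr12:53097547-53097666 on the plus strand.
IGFBP3: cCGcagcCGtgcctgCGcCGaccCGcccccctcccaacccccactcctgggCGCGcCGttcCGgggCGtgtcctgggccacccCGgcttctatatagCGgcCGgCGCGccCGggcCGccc
IGFBP4: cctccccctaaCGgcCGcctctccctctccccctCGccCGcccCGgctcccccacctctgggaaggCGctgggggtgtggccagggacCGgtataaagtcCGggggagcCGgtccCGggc
IGFBP5: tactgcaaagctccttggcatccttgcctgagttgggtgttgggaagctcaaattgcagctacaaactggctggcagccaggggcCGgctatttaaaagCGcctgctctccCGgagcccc
IGFBP6: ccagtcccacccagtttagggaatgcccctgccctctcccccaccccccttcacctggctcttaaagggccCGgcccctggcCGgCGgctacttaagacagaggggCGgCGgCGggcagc

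In the 250 bases before the start, IGFBP3 held 32 CpGs, more than 90.5% of the 35114 windows searched. IGFBP4 held 24, IGFBP6 held 9 and IGFBP5 held 8, beside a median of 11 over all windows. The 3 windows of IGFBP2 held 7, 22 and 4. The CpG count did not sort these genes by signal. Past the filter were IGFBP4, above the median window, and IGFBP5 and IGFBP6, below it. Not past the filter were IGFBP3, with the richest window, and IGFBP2, with windows on both sides of the median. The motif TATAAA, on either strand, was in the IGFBP4 window and in no other member window, and in 10.7% of all windows. A p53 half-site, searched on both strands, was in 1 IGFBP2 window and in no other, and in 5.57% of all windows. The GC box GGGCGG was in 5 of the 7 member windows (all but those of IGFBP5 and the third of IGFBP2) and in 42.6% of all. DNA methylation and protein binding were not measured, and these matches describe the letters only.

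By their place in the genome, IGFBP1 and IGFBP3 are direct neighbours on chromosome 7 and IGFBP2 and IGFBP5 on chromosome 2. Neither gene of the first pair passed the filter, whereas IGFBP5 was measured beside an IGFBP2 that read 7.71, the floor, on all 3 arrays. On chromosome 12 the genes on either side of IGFBP6 did not share its lower reading with stable Set8b: for stable Set8b over vector SPRYD3 was at 0.15 and SOAT2 at 0.41. The other nearest genes had no probe set of their own or, as TNS4 beside IGFBP4, did not pass the filter.

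The 3 genes closest to IGFBP7 in both differences over vector, out of 9090 candidates, were LPXN, F2RL2 and LY96, at distances of 0.12, 0.16 and 0.19 in log2 units over the 3 arrays. LPXN, a focal adhesion adaptor, read 43.7 with vector, 62.6 with the wild-type form and 306 with stable Set8b. F2RL2, a protease-activated receptor, read 75.3, 101 and 493 in that order. LY96, the co-receptor of TLR4 for bacterial lipopolysaccharide, read 176, 234 and 1213. Within a distance of 0.5 of IGFBP7 lay 21 genes, and within the same distance of IGFBP4 lay 192, so the pattern of IGFBP4 was the more common one. The closest to IGFBP4 were UFSP1, RELT and ICOSLG, with distances of 0.013, 0.041 and 0.067. UFSP1, a protease of the UFM1 pathway, read 43.8, 86.7 and 96.5, RELT, a TNF receptor family member, 117, 235 and 266, and ICOSLG, the ligand of the T cell costimulator ICOS, 158, 307 and 338.

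The rest of the IGF axis was described through a list of 64 other genes, of which 58 had a probe set of their own and 43 were measured. For stable Set8b over vector 8 of the 43 were at least 2-fold higher (background 5.23%) and 0 lower (background 4.81%), with a median of 0.09 log2, beside -0.01 over all genes measured. For stable over wild-type Set8b 5 were higher (background 4.45%) and 1 lower (background 4.8%), with a median of 0.09 beside -0.02. For wild-type Set8b over vector 0 of 43 passed 2-fold in either direction (background 1.02% higher and 0.653% lower), with medians of 0.04 and 0.01. The genes past 2-fold were proteases, matrix and surface partners and IGFBP-related proteins, and 1 was in the signalling arm. The list was chosen with earlier results of these data known, and ADAM28 passed the filter only through its stable Set8b reading. These shares are thus a description.

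Of the 3 ligand genes listed, 2 had a probe set of their own and 0 passed the filter, and no detection calls were used. None of the 5 probe sets of IGF1 passed the filter, and the brightest read 43.3 with vector, 78.6 with the wild-type form and 27.8 with stable Set8b. INS, the insulin gene, was at the floor on all 3 arrays. IGF2 had no probe set that names it alone and was not analysed here.

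Of 4 receptor genes 3 were measured, and 0 passed 2-fold by the probe set that stands for the gene. For stable Set8b over vector 5.23% of all genes measured were higher and 4.81% lower, so 0 of 3 says little. IGF1R, the signalling receptor for both IGFs, read 631 with vector, 661 with the wild-type form and 1060 with stable Set8b. The stable Set8b array was 0.75 log2 above vector and 0.68 above wild-type Set8b. Its 3 probe sets past the filter lay between 0.58 and 0.75 over vector, and between 0.68 and 1.19 over wild-type Set8b, where 1 passed 2-fold. IGF2R, which takes IGF2 up for degradation, read 1643, 1586 and 2834 in that order, 0.79 and 0.84 higher with stable Set8b. Both receptors were thus highest on the stable Set8b array, by more than the SD between probe sets, which leaves out the spread between cultures. A dimmer IGF2R probe set, however, lay at 0.37 over vector and -0.23 over wild-type Set8b. INSR, the insulin receptor, read 212, 222 and 185, and INSRR did not pass the filter.

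Among the IGFBP proteases and their inhibitors, 4 of the 7 measured genes were at least 2-fold higher with stable Set8b than with vector (background 5.23%). On the lower side 0 passed 2-fold (background 4.81%), and the median was 1.41 log2. Of the 4, ADAM28 passed the filter only through its stable Set8b reading, so the count and the median are in part selected. With 7 genes from a list chosen with earlier results of these data known, the share is a description. PAPPA encodes pappalysin, the protease that cuts IGFBP4 and IGFBP5. Its brightest probe set read 73.0 with vector, 65.6 with the wild-type form and 261 with stable Set8b, 3.57-fold and 3.97-fold higher than on the other arrays. All 4 of its probe sets past the filter were at least 2-fold higher, between 1.41 and 2.09 log2 over vector and up to 1.99 over wild-type Set8b. The brightest ends in _x_at and can read related transcripts. The other 3 read 33.6 to 41.0 with vector and 38.6 to 48.6 with the wild-type form, below the filter level. They passed the filter only through their stable Set8b readings, so their agreement is in part selected. The PAPPA probe sets that did not pass went both ways over vector. They lay at 2.44, 2.03, 1.04 and 0.24 log2, and at -0.29, -0.44 and -1.76, with all mean signals below the filter level.

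ADAM28, which can cut IGFBP3, read 47.3 with vector, 33.2 with the wild-type form and 188 with stable Set8b. The difference was at least 1.91 log2 from either array once the dim reading of that array is set to 50. Both dim readings lay below the filter level, so ADAM28 also passed the filter only through its stable Set8b reading. ADAM12, which can cut IGFBP3 and IGFBP5, read 173, 125 and 513 by its brightest probe set, 1.57 and 2.04 higher with stable Set8b. Its other probe sets past the filter were at 0.84 and 0.27 over vector and at 0.72 and 1.05 over wild-type Set8b, so whether ADAM12 passes 2-fold depends on the probe set. HTRA1, a secreted serine protease with an IGFBP-like domain, read 52.7, 102 and 140.0. Like IGFBP4, it was low on the vector array and higher on both Set8b arrays, at 1.41 for stable and 0.95 for wild-type Set8b over vector. PAPPA2, which cuts IGFBP3 and IGFBP5, was 1.24 higher than with wild-type Set8b and 0.82 higher than with vector, but its other probe set was at -0.36 and 0.55. STC1, an inhibitor of pappalysin, was at -0.66 over vector and at -0.70 over wild-type Set8b. Its other probe set past the filter, 204597_x_at, was past 2-fold lower in both, at -1.03 and -1.28.

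**Figure D3:**
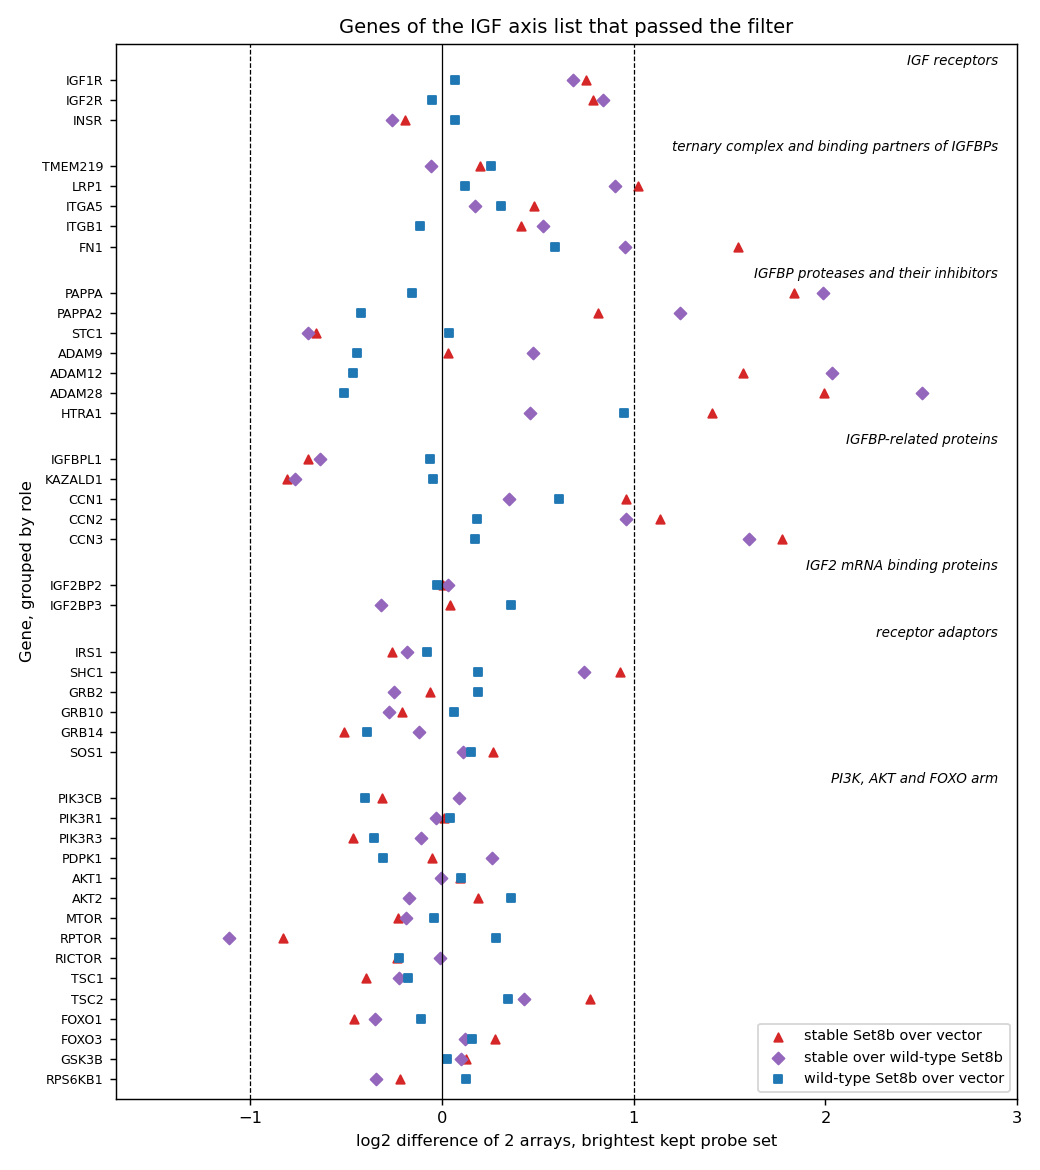
Log2 difference of 2 arrays for the 43 measured genes of the IGF axis list, by role, 1 point per comparison, each by its brightest probe set past the filter, with 2-fold differences as dashed lines. PAPPA, ADAM12 and ADAM28 lie right of the 2-fold line in both comparisons of stable Set8b, and every receptor adaptor and, but for RPTOR, every PI3K, AKT and FOXO gene lies within 2-fold. For stable Set8b over vector 10600 of all 11783 genes measured also lie within 2-fold.

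Of 5 measured binding partners 2 were at least 2-fold higher with stable Set8b than with vector (background 5.23%), FN1 and LRP1. On the lower side 0 passed 2-fold (background 4.81%). FN1, fibronectin, a matrix protein that binds IGFBP3 and IGFBP5, read 2515 with vector, 3789 with the wild-type form and 7339 with stable Set8b (2.92-fold over vector). Its 4 other probe sets past the filter lay between 0.45 and 1.71 log2 over vector, 1 of them short of 2-fold. Over wild-type Set8b the brightest was at 0.95 and the others between 1.05 and 1.39, past 2-fold. LRP1, a surface receptor that binds IGFBP3, read 185, 201 and 376 (2.03-fold over vector). With arrays centred on their medians LRP1 was at 0.95 log2, short of 2-fold, while its dimmer probe set past the filter was at 1.61 in the values reported. TMEM219, a receptor for IGFBP3, was at 0.20 over vector. IGFALS, the liver protein that completes the circulating complex of IGF and IGFBP3, did not pass the filter.

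Of 5 measured IGFBP-related proteins, which share the amino-terminal domain of the family, 2 were at least 2-fold higher with stable Set8b than with vector (background 5.23%). On the lower side 0 passed 2-fold (background 4.81%). CCN3 read 277 with vector, 313 with the wild-type form and 949 with stable Set8b, and was 1.77 and 1.60 higher with stable Set8b. CCN2, connective tissue growth factor, read 2611, 2961 and 5751, 1.14 over vector, or 0.96 and so short of 2-fold with arrays centred on their medians, and 0.96 over wild-type Set8b. CCN1 was at 0.96 over vector with stable and 0.61 with wild-type Set8b. Its second probe set, 210764_s_at, read 1712, 3509 and 4586 and was past 2-fold in both, at 1.42 and 1.04. KAZALD1 and IGFBPL1 went the other way, at -0.81 and -0.70, short of 2-fold.

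Downstream of the receptors, 0 of 6 measured receptor adaptors passed 2-fold in any comparison by the brightest probe set. Of all genes measured, 5.23% were higher and 4.81% lower for stable Set8b over vector, so 0 of 6 says little. The shares were 4.45% and 4.8% for stable over wild-type Set8b, and 1.02% and 0.653% for wild-type Set8b over vector. IRS1, the main IGF1R substrate, was at -0.26 for stable Set8b over vector. SHC1 was at 0.93 over vector and 0.74 over wild-type Set8b, but its dimmer probe set 201469_s_at was past 2-fold, at 1.34 and 1.53. SOS1 was at 0.15 for wild-type Set8b over vector, and its dimmest probe set past the filter, 212777_at, at -1.07. Of 15 measured genes of the PI3K, AKT and FOXO arm, 0 passed 2-fold against vector by the brightest probe set. Beside the same shares over all genes, 0 of 15 also says little. The arm mixes genes that carry the receptor's survival and growth signal with genes that oppose it, such as TSC1 and TSC2. Its median of -0.22 for stable Set8b over vector thus gives no direction of that signal. A dimmer probe set of RPS6KB1, a growth kinase, was at -1.04 in the same comparison. RPTOR, a scaffold of mTORC1, read 158 with vector, 192 with the wild-type form and 89.0 with stable Set8b, -1.11 over wild-type Set8b and -0.83 over vector. The 2 measured IGF2 mRNA binding proteins, which share only a name with the IGFBPs, were at 0.01 (IGF2BP2) and 0.04 (IGF2BP3) for stable Set8b over vector, and another IGF2BP3 probe set was at -1.06 over wild-type Set8b.

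The arrays carried the mesenchymal transcripts of an osteosarcoma line. COL1A1, the main bone collagen, read 8855 to 12893 by its brightest probe set. Its others past the filter read 1811 to 2641, 467 to 808 and 102 to 189. For stable Set8b over vector these lay at 0.54, 0.78 and -0.89 log2, beside 0.26 by the brightest. VIM read 11123 to 13006 and RUNX2, the osteoblast master regulator, 540 to 894. SP7, COL1A2 and IBSP, other osteoblast markers, were below 50 on all 3 arrays. SPARC read 5773 to 7644, and SPP1 read 469 with vector, 407 with the wild-type form and 773 with stable Set8b. ALPL read 37.7, 46.2 and 91.8 in that order, 2.43-fold higher with stable Set8b than with vector, but dim on the other arrays. RUNX2 was at -0.62 log2 over vector by its brightest probe set, and at 0.70 and 0.09 by the others past the filter. The 9 genes of this list with a probe set summed to 31525, 27133 and 35014. Endothelial cells are rich in IGFBP7. Their 4 markers, each by its brightest probe set, summed to 168 with vector, 232 with the wild-type form and 252 with stable Set8b. CDH5 and KDR were below 50 throughout. VWF was at 57.2 with stable Set8b and 77.7 with vector, and PECAM1 at 173 and 74.9 by 1559921_at. The other PECAM1 probe sets did not pass the filter. Their highest reading was 29.0, at 208982_at with wild-type Set8b, which read 19.3 with vector and 18.1 with stable Set8b. The 4 hepatocyte markers summed to 353, 480 and 1026, which was almost all SERPINA1 (945 with stable Set8b), and ALB and TTR were below 50. Leukocyte markers, 4 genes with a probe set, summed to 248, 297 and 345, with PTPRC and CD14 below 50. Of the 2 that passed the filter, CD3D read 107 with vector, 76.0 with the wild-type form and 200.2 with stable Set8b (2.64-fold over wild-type Set8b), and CD79A read 99.7, 184 and 117. Epithelial markers, 5 genes, summed to 8724, 9699 and 10655, mostly KRT8 and KRT18, with KRT19 below 50. EPCAM went the other way from that sum, with 431, 425 and 169, a log2 difference of -1.35 over vector and -1.33 over wild-type Set8b. The part of these marker levels in the IGFBP7 and IGFBP4 readings was not tested. In RNA from a whole culture, more cells that express a gene and more RNA per cell cannot be told apart.

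**Figure D4:**
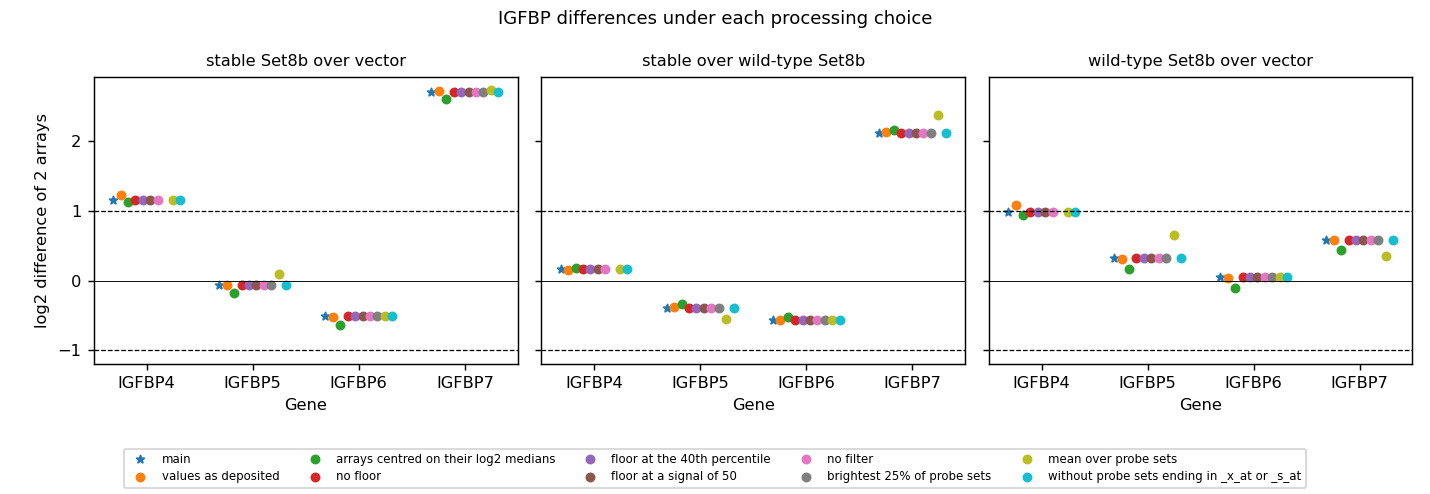
Log2 difference of the 4 measured IGFBP genes in each comparison as reported (star) and under 9 other processing choices (dots; 8 for IGFBP4), with 2-fold differences as dashed lines. IGFBP7 stays between 2.61 and 2.73 for stable Set8b over vector, and IGFBP4 crosses the 2-fold line for wild-type Set8b over vector with values as deposited.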

How the data were processed

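Per the labels' protocols, Trizol RNA was given a biotin label and put on Affymetrix arrays, 1 for each of 3 constructs. The authors deposited 54675 linear intensity values per array, 62 of them from control probe sets. The sources used here do not name their software, and every array has a trimmed mean of 250.0 (2% trimmed at each end). Because the log2 medians of the arrays spanned 0.146, above a limit of 0.1, the arrays were quantile normalized together without control probe sets, which removes any overall shift between arrays. Values were floored at the 20th percentile and taken to log2. Of 54613 probe sets, 41091 had 1 gene symbol, 1801 several and 11721 none. Of those with 1, 41037 matched a RefSeq gene of GRCh38.p14 by Entrez identifier and 0 symbols changed. The filter at the median kept 20546 probe sets and 11783 genes.

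Named were all 7 members, list genes at least 2-fold apart, the ligands and receptors, the 3 nearest genes by Euclidean distance (members and _x_at probe sets left out, all probe sets of a gene on 1 side) and the direct neighbours. Other genes were named after their values were seen: KMT5A, IGFBP7-AS1, the markers, and TMEM219, IGFALS, STC1, CCN1, KAZALD1, IGFBPL1, IRS1, SHC1, SOS1, RPS6KB1, IGF2BP2 and IGF2BP3. The members and lists were chosen with earlier results of these data known. The steps were tested on simulated data. The tools were Python 3.11.15, pandas 2.3.3, numpy 2.4.6, matplotlib 3.10.9 and scipy 1.17.1.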

Additional observations from a re-analysis of the deposited data

How the results depend on the processing

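Other choices were deposited values, median centring of each array, floors left out, at the 40th percentile or at a signal of 50, the filter left out or set to keep the brightest 25%, averaging the probe sets of a gene, leaving out those ending in _x_at or _s_at, and, for the members, thresholds of 1.5-fold and 3-fold. Centring moved the median of all genes over vector to -0.12 with stable and -0.13 with wild-type Set8b. None of the 105 member values moved by as much as the SD between probe sets. Differences short of 2-fold changed sign for IGFBP5 (0.10 over vector with stable Set8b by the mean over probe sets) and IGFBP6 (-0.10 for wild-type Set8b over vector with centring). IGFBP4 was not measured among the brightest 25%. For stable Set8b over vector, the members at least 2-fold higher were then 1, also 1 at 3-fold, and the list genes higher were 3 among the brightest 25% and 5 without _x_at and _s_at probe sets; 4 list genes were lower with no filter. With centring the list genes higher were 6, as LRP1 (0.95) and CCN2 (0.96) fell short of 2-fold. For stable over wild-type Set8b, 1 member was lower with no filter (IGFBP1, from readings of at most 17.4), 1 list gene was higher and 0 lower among the brightest 25%, and 8 were lower with no filter. For wild-type Set8b over vector, 1 member (IGFBP4) was higher with values as deposited and 1 at 1.5-fold, and of the list genes 1 (HTRA1) was higher as deposited, 4 with no filter, and 3 lower with no filter. The share of all genes past the threshold was taken under the main choices only, so these counts have no background beside them. They show only how far the counts move. Fewer genes are counted among the brightest 25% and more with no filter. The cause of the other changes was not tested. Without detection calls, signal over background limits what can be said of dim genes.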
